A study of Mus musculus with 4 samples.

Results

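Claudins are the transmembrane proteins that decide which ions and how much water pass between the cells of an epithelium or endothelium. The genes described here are 10 claudins (Cldn1, Cldn2, Cldn3, Cldn4, Cldn5, Cldn7, Cldn8, Cldn10, Cldn15 and Cldn19), found by gene symbol among the 22809 Ensembl genes of the deposited expression table. They were followed in poly(A) RNA of freshly isolated mouse glomeruli at 3 weeks of age, in 2 libraries labelled HDAC KO, a podocyte-specific knockout of Hdac1 and Hdac2, and in 2 Control libraries labelled wild type. Each library pooled 2 mice, and the design text of the series speaks of independent experiments. The labels name no Cre driver, strain or sex. Replicates are pools, and their spread is that between pools. Values are TPM (transcript abundance scaled by gene length and library), so that levels of different genes can be set side by side.

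Claudins of neighbouring cells bind each other across the intercellular space and form the strands of the tight junction. Some, such as claudin-3 and claudin-4, mainly seal the space, while others, such as claudin-2, form pores that are selective for charge. Along the nephron each segment has its own set, so that claudin transcripts differ between the proximal tubule, the thick ascending limb, the collecting duct, the parietal epithelium of Bowman's capsule and the endothelium. Podocytes are joined by the slit diaphragm, a modified junction in which tight junction proteins such as ZO-1 take part.

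In HDAC KO glomeruli Cldn4, Cldn3, Cldn7, Cldn1 and Cldn19 stood above both Control libraries. Their mean TPM was 5.19, 4.14, 3.00, 2.94 and 2.00 times that of Control. Cldn10 and Cldn2 stood below both Control libraries, and Cldn5, Cldn8 and Cldn15 overlapped in the deposited values. None of the 10 claudins passed an adjusted p of 0.05 in limma's moderated test across all 18612 genes with a mean of at least 1 TPM, where 0.00537% of genes were called in either direction, which is 1 gene. At an unadjusted p under 0.05, 5 of the 10 were higher (Cldn1, Cldn3, Cldn4, Cldn7 and Cldn19), against 13.4% of all tested genes, and 1 was lower (Cldn10), against 4.46%. The 5 claudins with both HDAC KO values above both Control values compare with 36.7% of all tested genes in that position, and the 2 below compare with 14.3%. These shares depend on how the libraries are scaled: after median-ratio scaling they became 24.1% above and 25.5% below, and the median log2 fold change of all genes moved to -0.03 from the 0.17 of the deposited values. The median log2 fold change of the 10 claudins was 0.52, which is 0.36 above that of all genes. A log2 fold change of at least 1 was reached by 4 of the 10 (Cldn1, Cldn3, Cldn4 and Cldn7), against 8.05% of all genes, and one of -1 or lower by Cldn10, against 2.43%. One library decided the calls: without Control replicate 2, 3 claudins were called higher (Cldn1, Cldn3 and Cldn4), against 8.37% of all genes, and 2 lower (Cldn2 and Cldn10), against 2.8%, with the lone Control library assumed to vary like the HDAC KO pair. All 10 passed the filter on low values, with at least 6 TPM in every library.

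**Figure D1:**
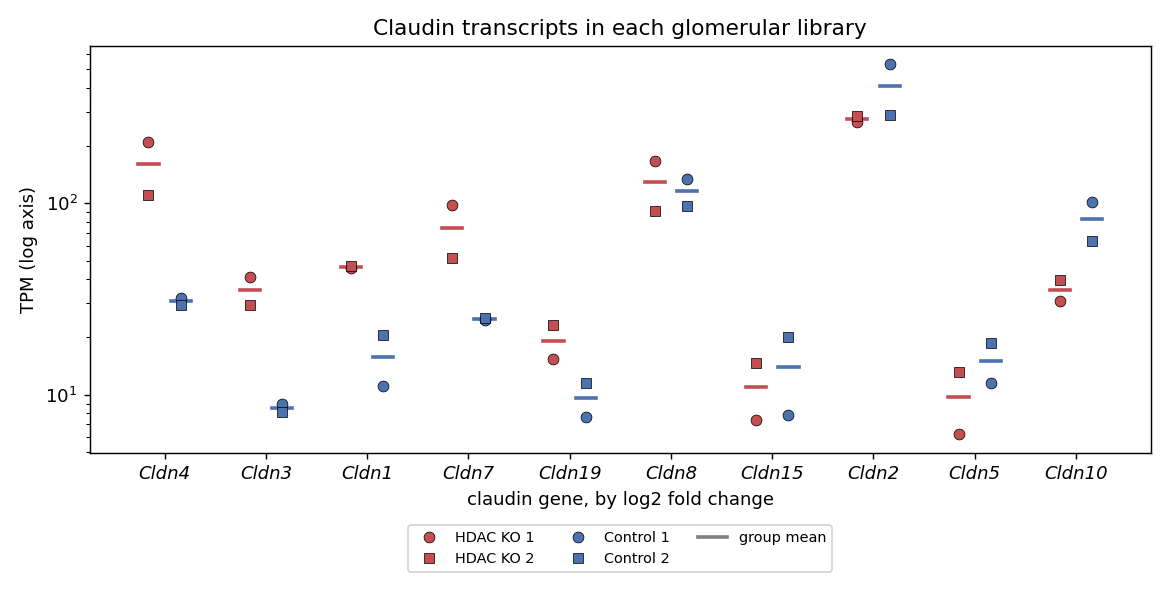
Level of each claudin in each library, as TPM on a logarithmic axis, ordered by log2 fold change. HDAC KO libraries (red) stand to the left of Control libraries (blue), circles are replicate 1, squares are replicate 2, and bars are group means. Cldn4 reaches 209 and 110 TPM in HDAC KO glomeruli, against 32.0 and 29.6 TPM in Control glomeruli, while Cldn10 lies at 30.9 and 39.8 TPM in HDAC KO, against 101.8 and 63.7 TPM in Control.

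The libraries held 17476365 and 20943138 reads on genes in HDAC KO and 15808117 and 12876939 in Control, recovered from the TPM values as described under processing. Hdac1 stood at 22.9 and 22.5 TPM in HDAC KO, against 19.3 and 18.6 TPM in Control (log2 fold change 0.25, SE 0.17, limma adjusted p = 0.512). Hdac2 stood at 23.5 and 20.9 TPM in HDAC KO, against 20.2 and 24.1 TPM in Control (0.01, SE 0.19, adjusted p = 0.991). Whole-glomerulus values per gene cannot show which cells or exons the reads came from, so neither value checks the labels. In such bulk RNA, fewer cells of a type and less RNA per cell cannot be told apart. Marker lists differed between the groups, and their part in the claudin values was not tested. Tubule transcripts were abundant: proximal tubule markers summed to 6124 and 7306 TPM in HDAC KO and 18655 and 12800 TPM in Control. These sums exceed the podocyte sums in every library. Claudin levels, orders and shares are therefore those of the isolated preparations and not of glomerular cells alone. How much tubule each pool carried was not tested. Counts of markers above or below Control, here and for the marker lists further on, compare with 36.7% of all tested genes above and 14.3% below. They use the deposited values, and the shares change with scaling as given above. Podocyte markers summed to 474 to 709 TPM in HDAC KO and 826 to 1233 TPM in Control, with 5 of 16 below and 2 above. Macrophage markers summed to 692 to 789 TPM in HDAC KO and 66.8 to 158 TPM in Control, with 13 of 13 above, and markers of injured epithelium to 22667 to 32260 TPM in HDAC KO and 1274 to 4702 TPM in Control, with 8 of 8 above. Most of the injured epithelium sum was Spp1, with 28478 and 20424 TPM in HDAC KO, against 1001 and 4293 TPM in Control. Krt20 of that list was at 0 in Control replicate 1, and no other marker of any list was at 0 in a library. Intercalated cell markers summed to 635 to 893 TPM in HDAC KO and 934 to 1210 TPM in Control, with 4 of 9 below. Distal convoluted tubule markers summed to 241 to 282 TPM in HDAC KO and 533 to 633 TPM in Control, with 4 of 5 below. Among the largest log2 fold changes in each list were those of Nphs1 (-2.32) for podocytes, Lyz2 (3.25) and C1qa (2.89) for macrophages, and Lcn2 (5.68) and Havcr1 (5.39) for injured epithelium. They also included those of Slc4a1 (-2.08) and Insrr (-1.35) for intercalated cells, and Pvalb (-2.02) and Calb1 (-1.57) for the distal convoluted tubule. Control replicate 1 set the size of some: without it, the log2 fold change of Havcr1 was 2.89 and without Control replicate 2 it was 7.89, from 0.711 and 53.7 TPM in Control. None of these genes was called by limma. Markers of the other tubule segments and of parietal, endothelial and principal cells are given beside the claudins of those cells.

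The claudin with the highest log2 fold change was Cldn4, a sealing claudin of the distal nephron that, with claudin-8, forms a chloride path in cultured mouse collecting duct cells. Cldn4 had 209 and 110 TPM in HDAC KO glomeruli, against 32.0 and 29.6 TPM in Control glomeruli. Its group means were 159.8 ± 69.8 TPM in HDAC KO and 30.8 ± 1.74 TPM in Control (SD, n = 2 each). The 2 HDAC KO values thus lie far apart from each other and both lie above 3 times the higher Control value. The log2 fold change was 2.27 (SE 0.32, limma adjusted p = 0.0988), from 2719 and 1678 reads in HDAC KO and 389 and 287 in Control. Cldn3, a sealing claudin with a similar distribution, had 41.2 and 29.5 TPM in HDAC KO, against 8.90 and 8.17 TPM in Control. The Cldn3 values did not overlap, and replicate 1 was the higher HDAC KO library, as for Cldn4. Its log2 fold change was 1.91 (SE 0.23, adjusted p = 0.0928), from 371 and 311 reads in HDAC KO and only 75 and 55 in Control.

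Cldn4 and Cldn3 are single-exon genes that lie 39279 bp apart on chromosome 5 of GRCm38, Cldn4 at 134945119 to 134946934 on the minus strand and Cldn3 at 134986214 to 134987472 on the plus strand. Of the Cldn3 exon bases, 3.2% are shared with the antisense gene Wbscr25, and whether the authors counted by strand is not given in the sources used here. The 250 bases before the start sites are printed here for these neighbours, for Cldn1, the higher claudin with the least spread in HDAC KO, and for Cldn2, the most abundant claudin and below both Control values. They come from RefSeq (GRCm38.p6), lie at chr5:134946935-134947184 (Cldn4, minus strand), chr5:134985964-134986213 (Cldn3, plus strand), chr16:26371840-26372089 (Cldn1, minus strand) and chrX:139800558-139800807 (Cldn2, plus strand), and are written 5′ to 3′ on the strand of the gene. Capitals mark matches to the motifs searched.
Cldn4: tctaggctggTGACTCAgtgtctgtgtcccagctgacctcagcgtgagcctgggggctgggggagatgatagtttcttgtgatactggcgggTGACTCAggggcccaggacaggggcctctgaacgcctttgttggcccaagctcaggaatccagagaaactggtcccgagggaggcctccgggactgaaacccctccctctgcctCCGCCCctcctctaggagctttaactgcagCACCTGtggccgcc
Cldn3: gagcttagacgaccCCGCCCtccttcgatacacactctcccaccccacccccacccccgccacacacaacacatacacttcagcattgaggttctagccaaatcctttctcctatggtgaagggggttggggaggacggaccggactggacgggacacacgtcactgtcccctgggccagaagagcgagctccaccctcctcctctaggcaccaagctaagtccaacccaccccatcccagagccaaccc
Cldn1: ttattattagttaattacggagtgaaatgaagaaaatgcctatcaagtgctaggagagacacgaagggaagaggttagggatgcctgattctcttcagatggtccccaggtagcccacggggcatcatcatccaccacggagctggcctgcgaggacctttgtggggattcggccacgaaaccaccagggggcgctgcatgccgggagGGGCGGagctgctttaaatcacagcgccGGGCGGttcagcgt
Cldn2: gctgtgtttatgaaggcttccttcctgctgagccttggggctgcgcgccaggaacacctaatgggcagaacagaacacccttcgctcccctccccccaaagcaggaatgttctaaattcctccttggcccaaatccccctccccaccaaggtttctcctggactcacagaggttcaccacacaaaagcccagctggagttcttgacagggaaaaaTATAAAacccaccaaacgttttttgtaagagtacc
Both strands were searched for 5 motifs, which do not overlap in these sequences. An AP-1 site (TGANTCA) occurred 2 times before Cldn4, and 0.338% of 32851 RefSeq promoter windows of the same length held 2 or more, while 6.75% held any. A GC box (GGGCGG) occurred 1 time each before Cldn4 and Cldn3 and 2 times before Cldn1. Of all windows, 32.7% held any and 16.7% held 2 or more. A TATA box (TATAAA) occurred before Cldn2, and in 12.4% of all windows. An E-box of the kind bound by Snail proteins (CAGGTG) occurred before Cldn4, and in 17.2% of all windows. A Grainyhead site (AACCNGGTT), held by 0.24% of windows, was found before none of the 9 claudins with a RefSeq promoter. Those 9 claudins have 12 windows, of which 2 held an AP-1 site (Cldn4 and Cldn15), 9 a GC box and 2 a Snail E-box (Cldn4 and Cldn7). The 2 Cldn19 windows largely overlap and hold the same GC boxes. The GC boxes of Cldn7 and Cldn10 and the E-boxes of Cldn7 stand only in a second window. Of that window, 221 (Cldn7) and 218 (Cldn10) bases lie in annotated exons of the gene. A promoter of Cldn8 was not analysed here. A match is a run of letters and no evidence that a factor binds there.

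Cldn7, which lies along the lateral membrane of distal nephron and collecting duct cells and binds the adhesion molecule EPCAM, had 97.3 and 51.6 TPM in HDAC KO, against 24.6 and 25.2 TPM in Control. Its HDAC KO replicate 1 was well above replicate 2, and both stood above Control. The log2 fold change was 1.48 (SE 0.31, adjusted p = 0.119 with limma). Cldn8, the other main collecting duct claudin, did not follow. It had 166.7 and 91.3 TPM in HDAC KO, against 134.5 and 96.5 TPM in Control, and the groups overlapped (log2 fold change 0.11, SE 0.33, adjusted p = 0.895). The direction of Cldn8 depended on the scaling, since median-ratio scaling gave -0.12. The ratio of Cldn4 to Cldn8, which no scaling of a library can change, was 1.25 and 1.21 in HDAC KO, against 0.238 and 0.306 in Control. Cldn7 relative to Cldn4 was nearly the same in both HDAC KO libraries, at 0.465 and 0.467, against 0.767 and 0.851 in Control. Cldn3 relative to Cldn4 was 0.197 and 0.267 in HDAC KO, against 0.278 and 0.276 in Control.

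Collecting duct principal cells express Cldn3, Cldn4, Cldn7 and Cldn8. Their 9 other markers summed to 1714 and 1259 TPM in HDAC KO and 2199 and 1377 TPM in Control, and 0 of 8 tested stood above Control. The water channel gene Aqp2 was at 493 and 499 TPM in HDAC KO, against 682 and 374 TPM in Control, and Aqp3 at 228 and 175 TPM in HDAC KO, against 405.0 and 243 TPM in Control. Aqp3 (-0.65) and Hsd11b2 (-0.51) had the largest log2 fold changes in that list. On the log2 scale, Cldn4 per summed principal cell marker was -3.27 in HDAC KO and -5.82 in Control, a difference of 2.55. The same difference was 2.28 for Cldn3, 1.76 for Cldn7 and 0.36 for Cldn8, and for Cldn8 the groups overlapped when the markers were averaged geometrically (0.25). Cldn4, Cldn3 and Cldn7 were thus higher per principal cell marker by more than the spread between libraries. Parietal epithelial markers, which include keratins found in other epithelia too, were also higher in HDAC KO. They summed to 1706 and 1326 TPM in HDAC KO and 429 and 592 TPM in Control, and 12 of 13 stood above. Their log2 fold changes differed widely, from -0.16 for Dkk3 to 3.94 for Vcam1. Macrophage and injured epithelium markers stood above as well, as given earlier. The part of any of these lists in the values of Cldn3, Cldn4 and Cldn7 was not tested.

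Cldn1 marks parietal epithelial cells in the glomerulus and is the main sealing claudin of the epidermis. It had 45.9 and 46.9 TPM in HDAC KO, against 11.2 and 20.4 TPM in Control. The HDAC KO libraries were nearly equal, at 46.4 ± 0.669 TPM, and the Control libraries differed more, at 15.8 ± 6.52 TPM (SD, n = 2 each). The log2 fold change was 1.55 (SE 0.29, limma adjusted p = 0.108), from 1591 and 1897 reads in HDAC KO and 362 and 528 in Control. Relative to the summed parietal markers on the log2 scale, Cldn1 was at -5.02 in HDAC KO and -5.06 in Control, and the libraries overlapped. With a geometric mean of the markers that difference was -0.20, below both Control libraries, in place of 0.04. Among the parietal markers the largest fold changes were those of the adhesion molecule Vcam1, with 129 and 122 TPM in HDAC KO, against 1.25 and 29.0 TPM in Control, and of the keratin Krt19, with 67.2 and 26.9 TPM in HDAC KO, against 2.01 and 3.13 TPM in Control.

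**Figure D2:**
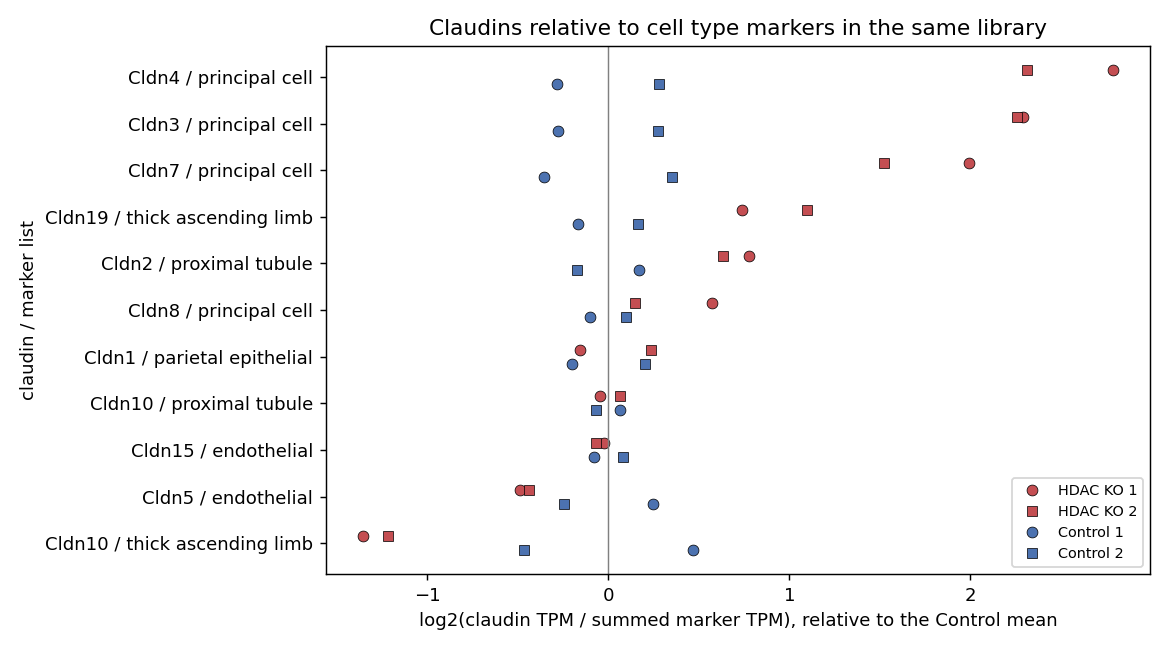
Claudin level per summed level of the markers of a cell type, as log2 ratio relative to the Control mean, with HDAC KO libraries in red above Control libraries in blue, circles for replicate 1 and squares for replicate 2. Cldn4, Cldn3 and Cldn7 per principal cell marker lie above both Control libraries by 2.55, 2.28 and 1.76 on average, Cldn10 per thick ascending limb marker lies below by -1.28, and Cldn1 per parietal marker overlaps.

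In the thick ascending limb, claudin-16 and claudin-19 together carry calcium and magnesium between cells, and human mutations in either gene cause renal magnesium loss. Cldn19 had 15.3 and 23.0 TPM in HDAC KO, against 7.64 and 11.5 TPM in Control. The groups did not overlap, with a log2 fold change of 0.93 (SE 0.30, limma adjusted p = 0.207), and 2.1% of Cldn19 exon bases are shared with the antisense gene Gm12927. Cldn16 had 17.4 and 21.6 TPM in HDAC KO, against 10.3 and 17.5 TPM in Control, with overlap at a log2 fold change of 0.49 (SE 0.29). The ratio of Cldn16 to Cldn19 was 1.13 and 0.940 in HDAC KO, against 1.35 and 1.53 in Control. Markers of the thick ascending limb summed to 1993 and 2329 TPM in HDAC KO and 1857 and 2218 TPM in Control, and they were mixed, with 2 of 8 above and 4 below. Umod, the gene of uromodulin, was at 1189 and 1475 TPM in HDAC KO, against 749 and 902 TPM in Control, while Egf was at 45.3 and 103 TPM in HDAC KO, against 201 and 273 TPM in Control. Egf (-1.76) and Wfdc15b (-1.04) had the largest log2 fold changes there. Per summed marker, Cldn19 was higher by 0.92 on the log2 scale, and by 1.41 with the geometric mean.

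Cldn10 is made in 2 kinds of transcript, 1 giving an anion pore of the proximal tubule and 1 a cation pore of the thick ascending limb, which a value per gene does not separate. It had the lowest log2 fold change of the 10 claudins. Cldn10 stood at 30.9 and 39.8 TPM in HDAC KO, against 101.8 and 63.7 TPM in Control. Both HDAC KO values lay below both Control values, and the Control libraries lay further apart, with means of 35.4 ± 6.25 TPM in HDAC KO and 82.7 ± 27.0 TPM in Control (SD, n = 2 each). The log2 fold change was -1.18 (SE 0.27, limma adjusted p = 0.129), from 574 and 862 reads in HDAC KO and 1765 and 882 in Control. Proximal tubule markers summed to 6124 and 7306 TPM in HDAC KO and 18655 and 12800.0 TPM in Control, with 20 of 20 below. The largest log2 fold changes were those of Slc7a13 (-3.32, SE 1.84) and Miox (-2.44, SE 0.30). Slc7a13 rested on 1 library, with 5.02 and 5.64 TPM in HDAC KO, against 512 and 6.81 TPM in Control, and without Control replicate 1 its log2 fold change was -0.31. Per summed proximal tubule marker, Cldn10 differed by 0.01 on the log2 scale and overlapped, though with the geometric mean it was 0.15 above. Per summed thick ascending limb marker, Cldn10 was lower by -1.28, or by -0.79 with the geometric mean.

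Cldn2, the cation and water pore of the proximal tubule, was the most abundant claudin in both groups. It had 266 and 287 TPM in HDAC KO, against 530.3 and 287 TPM in Control. The higher HDAC KO value lay under the lower Control value by less than 1 TPM, and Control replicate 1 alone stood well above the rest. The log2 fold change was -0.50 (SE 0.32, limma adjusted p = 0.483). Without Control replicate 1 it was -0.06, and without Control replicate 2 it was -0.94. Per summed proximal tubule marker, Cldn2 was higher in HDAC KO by 0.71 on the log2 scale. The ratio of Cldn2 to Cldn10 was 8.59 and 7.21 in HDAC KO, against 5.21 and 4.52 in Control.

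Cldn5, the main claudin of the endothelium of the blood-brain barrier, had 6.21 and 13.2 TPM in HDAC KO, against 11.5 and 18.6 TPM in Control. In the deposited values the groups overlapped (log2 fold change -0.63, SE 0.41, limma adjusted p = 0.487). With median-ratio scaling and quantile normalization, Cldn5 stood below both Control libraries (-0.85 and -0.86). Replicate 2 was the higher library in each group of the deposited values. Endothelial markers showed the same step between replicates, with sums of 440 and 905 TPM in HDAC KO and 491 and 1119 TPM in Control. Of these markers 17 of 17 overlapped, against 9132 of all 18612 tested genes. They include those with the largest log2 fold changes, Ehd3 (-0.90) and Nostrin (-0.64). Per summed endothelial marker, Cldn5 was below both Control libraries, by -0.46 on average on the log2 scale. The log2 ratios were -6.15 and -6.10 in HDAC KO, against -5.42 and -5.91 in Control, so the Control libraries lay well apart. Cldn5 was not set against podocyte markers, which summed to 474 and 709 TPM in HDAC KO and 826 and 1233 TPM in Control. Which cells the Cldn5 reads came from was not tested. Cldn15, a cation pore best known from the intestine, had 7.37 and 14.6 TPM in HDAC KO, against 7.88 and 20.1 TPM in Control. It overlapped as such (log2 fold change -0.26, SE 0.51, adjusted p = 0.838) and per endothelial marker (-0.04).

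Set in order of mean TPM, HDAC KO glomeruli had Cldn2 at 276 ± 14.8, Cldn4 at 159.8 ± 69.8, Cldn8 at 129.0 ± 53.3, Cldn7 at 74.5 ± 32.3, Cldn1 at 46.4 ± 0.669, Cldn10 at 35.4 ± 6.25, Cldn3 at 35.3 ± 8.22, Cldn19 at 19.2 ± 5.42, Cldn15 at 11 ± 5.14 and Cldn5 at 9.69 ± 4.92 TPM (SD, n = 2). Neighbours in that order whose values overlapped were Cldn4 with Cldn8, Cldn8 with Cldn7, Cldn10 with Cldn3, and Cldn15 with Cldn5. Control glomeruli had Cldn2 at 409 ± 172, Cldn8 at 115.5 ± 26.9, Cldn10 at 82.7 ± 27.0, Cldn4 at 30.8 ± 1.74, Cldn7 at 24.9 ± 0.425, Cldn1 at 15.8 ± 6.52, Cldn5 at 15.1 ± 5.03, Cldn15 at 14.0 ± 8.62, Cldn19 at 9.57 ± 2.72 and Cldn3 at 8.54 ± 0.519 TPM (SD, n = 2). There, Cldn8 overlapped Cldn10, and the run from Cldn1 down to Cldn3 overlapped at every step. Cldn4 was thus second in HDAC KO and below Cldn8 and Cldn10 in Control.

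As a share of the summed TPM of the 18 claudins in the table, Cldn2 made up 28.1% and 37.4% in HDAC KO, against 57.4% and 44.9% in Control. Cldn4 made up 22.1% and 14.4% in HDAC KO, against 3.47% and 4.62% in Control. Cldn7 made up 10.3% and 6.73% in HDAC KO, against 2.66% and 3.93% in Control, and Cldn10 3.28% and 5.19% in HDAC KO, against 11.03% and 9.94% in Control. Cldn8 was at similar shares, 17.6% and 11.9% in HDAC KO, against 14.6% and 15.1% in Control. The summed TPM of all 18 claudins overlapped, with 945 and 767 in HDAC KO, against 923 and 640.3 in Control. The 10 claudins made up 93.8% and 92.2% of that sum in HDAC KO, against 94.3% and 90.7% in Control.

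**Figure D3:**
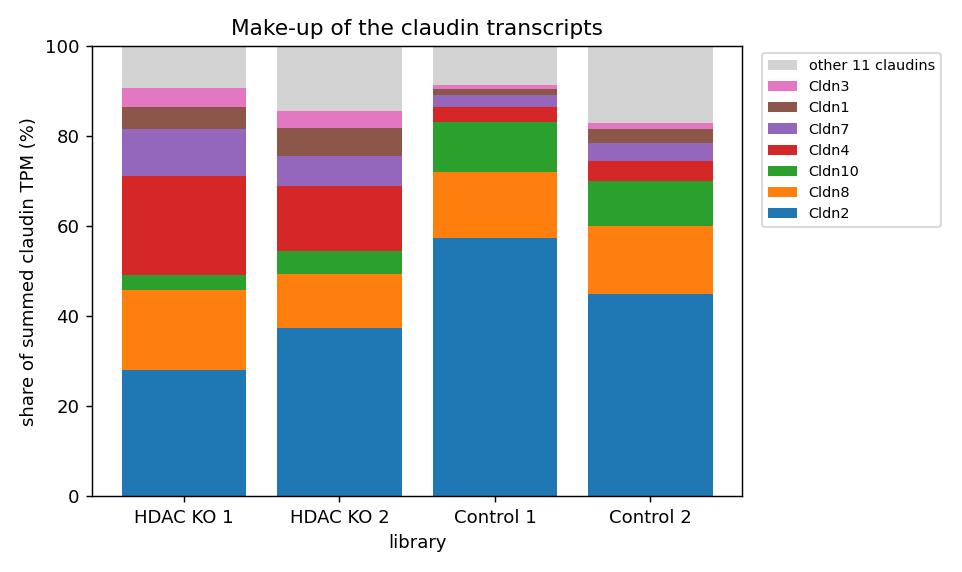
Share of each claudin in the summed TPM of the 18 listed claudins, in percent, with 1 stacked bar for each library and HDAC KO libraries to the left of Control libraries. Cldn4 takes 22.1% and 14.4% in HDAC KO, against 3.47% and 4.62% in Control, and Cldn2 takes 28.1% and 37.4% in HDAC KO, against 57.4% and 44.9% in Control.

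Of the 8 other claudins in the table, 4 (Cldn6, Cldn12, Cldn16 and Cldn20) reached the mean of 1 TPM. Cldn12 was at the level of several of the 10, with 31.2 and 28.4 TPM in HDAC KO, against 34.7 and 34.2 TPM in Control. None of these 4 was called, with 1 above and 2 below, against 36.7% and 14.3% of all tested genes. Their median log2 fold change was 0.14, against 0.17 for all genes. At an unadjusted p under 0.05, 1 was higher, against 13.4% of all tested genes. With no filter on low values, 4 of the 8 stood above and 2 below, against 36.3% and 13.5% of all genes. The median was then 0.38, against 0.16 for all genes. Cldn9, Cldn14 and Cldn23, which then joined those above, had at most 19 reads in any library. Cldn6, a claudin of embryonic epithelia, had 6.09 and 3.75 TPM in HDAC KO, against 1.74 and 2.61 TPM in Control (log2 fold change 0.88, SE 0.34). Cldn20 had 1.48 and 2.90 TPM in HDAC KO, against 2.94 and 3.97 TPM in Control (-0.51, SE 0.36).

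Other junction genes were read from lists chosen by function. Of 12 other membrane proteins of the tight junction, none was called, 8 stood above Control and 2 below, and the median log2 fold change was 0.45. Among all tested genes, 36.7% stood above and 14.3% below, and these shares apply to each list that follows. The largest was that of Lsr, an angulin of the contacts between 3 cells, with 35.5 and 30.9 TPM in HDAC KO, against 17.9 and 14.4 TPM in Control (1.0, SE 0.20). Next came Marveld2, the tricellulin gene, with 25.9 and 24.4 TPM in HDAC KO, against 13.5 and 10.9 TPM in Control (0.99, SE 0.20). Of 21 plaque and polarity proteins none was called, 11 stood above and 3 below, with a median of 0.25. Cgn, which encodes the plaque protein cingulin, had 33.3 and 32.9 TPM in HDAC KO, against 14.5 and 17.7 TPM in Control (1.01, SE 0.18).

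Of 13 adherens junction genes, 9 stood above and 1 below, none was called, and the median log2 fold change was 0.65. Cdh3, which encodes P-cadherin, had 55.0 and 39.9 TPM in HDAC KO, against 6.24 and 12.3 TPM in Control (2.29, SE 0.34, limma adjusted p = 0.0988). Cdh6, which encodes the cadherin-6 of the developing proximal tubule, had 18.2 and 25.3 TPM in HDAC KO, against 2.34 and 11.03 TPM in Control (1.83, SE 0.61). Of 11 claudin partners and proteases, 6 stood above and 3 below, none was called, and the median was 0.69. The tetraspanin gene Cd9 had 217 and 164 TPM in HDAC KO, against 91.0 and 88.0 TPM in Control (1.07, SE 0.19).

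Of 13 tested epithelial transcription and splicing factors, 7 stood above and 1 below, none was called, and the median was 0.40. Klf5 had 7.25 and 4.94 TPM in HDAC KO, against 0.747 and 1.44 TPM in Control (1.76, SE 0.34). Elf3, an epithelial ETS factor, had 90.4 and 61.6 TPM in HDAC KO, against 18.1 and 26.2 TPM in Control (1.73, SE 0.27). Of the 4 tested repressors of epithelial genes, none was called or stood apart. Zeb2 had 14.0 and 20.5 TPM in HDAC KO, against 5.90 and 14.3 TPM in Control (0.80, SE 0.43), and Snai2 had 1.45 and 2.25 TPM in HDAC KO, against 1.33 and 4.07 TPM in Control (-0.29, SE 0.46). Several of these counts depended on the scaling: after median-ratio scaling, 3 of 12 membrane proteins, 6 of 21 plaque proteins, 6 of 13 adherens junction genes, 3 of 11 partners and 3 of 13 factors stood above Control, against 24.1% of all tested genes, while the 5 claudins above remained above. The median of the plaque and polarity proteins was then 0.028.

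**Figure D4:**
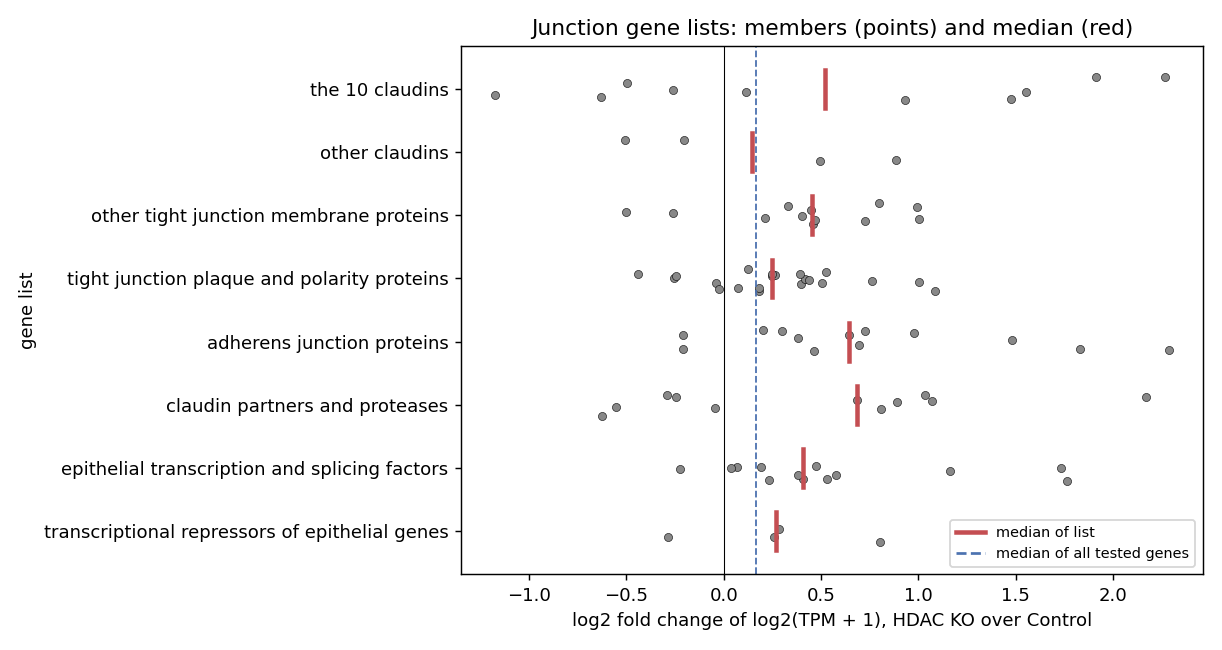
Log2 fold change of HDAC KO over Control for each tested gene of the junction lists, with each point a gene, the red mark the list median and the dashed blue line the median of all tested genes at 0.17. The median of the 10 claudins is 0.52, that of the other claudins 0.14, that of the adherens junction genes 0.65 and that of the claudin partners and proteases 0.69.

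Among 196 genes of the lists, the keratins Krt18 and Krt8 were among the 3 whose patterns over the 4 libraries were most like that of Cldn4. The root mean square difference between row-centred log2(TPM + 1) values was 0.170 for Krt18 and 0.231 for Krt8. Krt18 had 234 and 131 TPM in HDAC KO, against 41.0 and 45.7 TPM in Control. The patterns most like that of Cldn10 were those of Col4a3 (0.115), a collagen of the glomerular basement membrane on the podocyte list, and of Keg1 (0.127) and Slc13a3 (0.134), from the list of proximal tubule markers. Col4a3 had 109 and 146 TPM in HDAC KO, against 299 and 219.8 TPM in Control.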

How the data were processed

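Poly(A) RNA of isolated glomeruli was measured in 4 libraries, 2 labelled HDAC KO and 2 Control. The authors deposited TPM values for 22809 Ensembl genes, and each column sums to 1000000. Per the submitters' processing notes, which state no order or role, the build was GRCm38.p6 and the tools were DESeq2 1.30.1, featureCounts 2.0.0, STAR 2.7.9 and fastp 0.20. Which annotation, strand setting and gene filter were used is not given in the sources used here. Symbols were found for 22762 genes.

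TPM keeps no depth. Multiplied by union exon length (GENCODE M21, GRCm38), the values of 22176 genes (97.2%) were whole multiples of 1 step per library within a relative tolerance of 1e-06, and these reads give the depths printed.

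Genes were tested with limma (version 3.58.1, R version 4.3.3, lmFit, then eBayes with a trended prior) after taking log2(TPM + 1), for 18612 genes with a mean of at least 1 TPM (4197 left out), with Benjamini-Hochberg adjustment over all of them and calls at 0.05. On this scale, fold changes of weakly expressed genes come out too small. The script was tested on simulated data. Motif search and figures used Python 3.11.15.

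The 10 claudins and all gene lists were chosen with earlier results of these data known, so no test was made over a list. Beside the 10 claudins and both targeted genes, the text names the 2 genes of each list with the largest log2 fold change in size, the 3 list genes nearest in pattern to the highest and lowest claudin, and others chosen after their values were seen. Some genes that this rule names are not reported here. Alternatives covered the pseudocount (0.1 and 5), the filter (none and 5 TPM), scaling, the variance prior, a replicate block, leaving out each library, limma voom on recovered reads, and the geometric mean of markers.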

Additional observations from a re-analysis of the deposited data

How the results depend on the processing

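Cldn1, Cldn3, Cldn4, Cldn7 and Cldn19 stood above Control and Cldn2 and Cldn10 below with median-ratio scaling, quantile normalization and voom. Cldn5 also stood below Control with median-ratio scaling (-0.85) and quantile normalization (-0.86), but overlapped with voom. The other alternatives cannot undo a full separation of the groups, so they do not test it. Over the 13 alternatives run, log2 fold changes ran 1.81 to 2.73 for Cldn4, 1.56 to 2.15 for Cldn3, 1.15 to 1.96 for Cldn1 and 1.03 to 1.93 for Cldn7. They ran 0.65 to 1.21 for Cldn19, -1.51 to -0.84 for Cldn10, -0.94 to -0.06 for Cldn2 and -1.12 to -0.14 for Cldn5. No claudin was called in any alternative that kept all 4 libraries.

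Without Control replicate 2, 5 claudins passed: Cldn1 at 1.96 (limma adjusted p = 0.0111), Cldn2 at -0.94 (0.0380), Cldn3 at 1.86 (0.0266), Cldn4 at 2.21 (0.0464) and Cldn10 at -1.51 (0.0268). The lone Control library is then assumed to vary like the HDAC KO pair, and 1558 genes (8.37%) were called higher and 522 (2.8%) lower. Leaving out each library in turn gave 0 to 5 claudins called, 2 to 4 below Control, 0 to 1558 genes called higher and 0 to 522 lower. The 1 gene called lower was lost (0) with quantile normalization, without the trend, with voom and without Control replicate 1.

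Cldn8 reversed to -0.12 with median-ratio scaling, and over the left-out libraries it ran -0.32 to 0.55. Cldn15 ran -0.88 to 0.36 over the left-out libraries, reversing at 0.19 without HDAC KO replicate 1 and at 0.36 without Control replicate 2. Hdac2 reversed to -0.22 with median-ratio scaling, -0.17 with quantile normalization, -0.043 with voom, and -0.08 and -0.12 without HDAC KO replicate 1 and Control replicate 1. With the geometric mean of markers, the log2 ratio to markers moved to 0.15 for Cldn10 in the proximal tubule, -0.79 for Cldn10 and 1.41 for Cldn19 in the thick ascending limb. Over the left-out libraries Hdac2 ran -0.12 to 0.13, Cldn3 1.68 to 2.15 and Cldn2 -0.94 to -0.059. The cause of these moves was not tested.

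With the replicate number as a block, 0 claudins were called and Cldn4 kept 2.27 (adjusted p = 0.0618). Same-numbered libraries deviated together with a correlation of 0.14 over only 2 pairs, so the numbers are not shown to pair the libraries. Cldn5 had as few as 63 reads (HDAC KO replicate 1) and Cldn3 as few as 55 (Control replicate 2), which limits both.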

Other observations

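The genes within 100 kb of the Cldn4 and Cldn3 pair were read after the values of both were seen. Of 8 tested neighbours, 4 stood above Control and 1 below, against 36.7% and 14.3% of all tested genes, with log2 fold changes from -0.40 to 0.92, all smaller than those of Cldn4 (2.27) and Cldn3 (1.91). Vps37d, an ESCRT component gene, had 12.8 and 14.8 TPM in HDAC KO, against 7.36 and 6.30 TPM in Control. Mettl27 had 16.3 and 19.6 TPM in HDAC KO, against 10.5 and 11.2 TPM in Control. Bud23 overlapped, with 10.7 and 13.3 TPM in HDAC KO, against 12.1 and 12.6 TPM in Control.

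Cldn1 and Cldn16 lie 91293 bp apart on chromosome 16. Of the other genes there, Il1rap had 3.10 and 2.43 TPM in HDAC KO, against 2.89 and 2.44 TPM in Control, and Tmem207 had 0.779 and 2.27 TPM in HDAC KO, against 2.67 and 4.03 TPM in Control.

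Around Cldn6, 9 of 11 tested neighbours stood above Control and 1 below, against 36.7% and 14.3% of all tested genes in the deposited values. Their log2 fold changes ran from -0.20 to 2.31, that of Flywch1 was 0.19, and none of them was called. No effect of the region was tested. Tnfrsf12a, which encodes the receptor of the cytokine TWEAK, had 83.9 and 78.9 TPM in HDAC KO, against 11.4 and 21.1 TPM in Control (log2 fold change 2.31, SE 0.30, limma adjusted p = 0.0928).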
